A study of Mus musculus with 12 samples.

Results

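Transglutaminases and peptidylarginine deiminases are the enzymes that modify structural proteins in the outer epidermis and in hair. The deposited table of 18505 genes held 9 genes of these families that were selected by symbol, namely the 5 transglutaminases Tgm1, Tgm2, Tgm3, Tgm5 and Tgm6 and the 4 peptidylarginine deiminases Padi1, Padi2, Padi3 and Padi4. RNA-seq had been run on 12 samples of back skin from male wild-type (WT) BALB/c mice, 5 to 6 weeks old at supply, whose back hair had been shaved, with 4 samples in each of 3 groups taken on day 10. The control group received petroleum jelly (its treatment label reads white space handling), the IMQ + NS group received imiquimod cream followed by a saline covering, and the IMQ + BZLF group received imiquimod cream followed by Banzhilian formula (BZLF), an external preparation of traditional Chinese medicinal materials. Imiquimod is an agonist of Toll-like receptor 7 that induces psoriasis-like inflammation in mouse skin. The paper describes a dressing of gauze and polyurethane film for both imiquimod groups and mentions none for the control group. Differences from control therefore cannot tell imiquimod and the dressing apart. No group received BZLF without imiquimod or saline without imiquimod, and the sources do not state which BZLF dose the sequenced skin had received.

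Transglutaminases are calcium-dependent enzymes that join glutamine to lysine side chains and so crosslink proteins such as loricrin, involucrin and the small proline-rich proteins into the cornified envelope beneath the keratinocyte membrane. Peptidylarginine deiminases, also calcium-dependent, turn arginine into citrulline, which removes positive charge and loosens the binding of filaggrin and trichohyalin to keratin filaments. In the hair follicle both reactions act on trichohyalin, which hardens the inner root sheath around the growing hair.

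The values were FPKM, fragment counts scaled by transcript length and by the size of the library, so that levels of different genes are set side by side per length. Fold changes are log2 differences on log2(FPKM + 0.1), which understates the change of genes at a low level. A gene was called higher or lower at an adjusted p below 0.05 in limma's linear model across 15288 genes together with a log2 difference over 1 in size. The 9 genes had all passed the filter of a mean of 0.1 FPKM over the 12 samples.

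Control 2 stood apart from the other control samples. Its 7 inner root sheath keratins summed to 1771 FPKM, against 15.7 to 51.4 FPKM in controls 1, 3 and 4, and its skeletal muscle genes summed to 4456 FPKM, against 10094 to 11070 FPKM. Seminal vesicle genes, which are foreign to skin, summed to 41.2 FPKM in control 2 and 40.5 FPKM in IMQ + BZLF 2 and to at most 0.04 FPKM in the samples of IMQ + NS. Keratinocyte markers were abundant in every sample, with suprabasal genes summing to between 989 and 3509 FPKM. These samples were bulk tissue, in which fewer cells of a type and less RNA per cell cannot be told apart.

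The members lie in a few places of the mouse genome (mm10, GENCODE M21 gene bounds). Padi4 (chr4:140745865-140774236), Padi3 (chr4:140785365-140810648) and Padi1 (chr4:140812983-140845778) follow each other on the minus strand, and Padi2 (chr4:140906344-140952586) follows on the plus strand, so that the 4 genes lie within 206722 bases. Tgm3 (chr2:130012349-130050399) and Tgm6 (chr2:130112416-130154232) are on the plus strand with 62016 bases between them and AU015228 as the gene in between. Tgm5 (chr2:121046111-121085841) and Tgm2 (chr2:158116402-158146436) lie on the same chromosome on the minus strand, and Tgm1 (chr14:55700009-55713926) is on another.

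Start regions of the 6 members called higher under imiquimod are shown, so that the neighbouring genes Padi1, Padi3 and Padi4 and the others can be set side by side. Each runs 5′ to 3′ on the gene's strand from 250 bases before to 50 bases after the annotated start (RefSeq, GRCm38.p6, the build also called mm10). RefSeq start regions were matched for 8 of the 9 members, with Tgm2 the member without a match. Capitals mark matches on either strand to CCAAT, to GGGCGG, to TATAAA and to TGANTCA, where N is any base. These are the motifs of NF-Y, of Sp1, of the TATA box and of AP-1, in that order, and no matches overlapped in the regions shown. The regions are Padi3 (chr4:140810599-140810898, minus strand), Padi1 (chr4:140845729-140846028, minus strand), Padi4 (chr4:140774154-140774453, minus strand), Tgm3 (chr2:130012090-130012389, plus strand), Tgm6 (chr2:130112166-130112465, plus strand, the first of its annotated starts) and Tgm1 (chr14:55713443-55713742, minus strand, the first of its annotated starts).
Padi3: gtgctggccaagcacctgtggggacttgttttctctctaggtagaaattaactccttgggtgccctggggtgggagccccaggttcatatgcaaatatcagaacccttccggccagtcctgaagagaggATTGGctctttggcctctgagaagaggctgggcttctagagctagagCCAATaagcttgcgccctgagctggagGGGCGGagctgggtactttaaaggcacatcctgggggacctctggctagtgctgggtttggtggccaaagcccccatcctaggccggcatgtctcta
Padi1: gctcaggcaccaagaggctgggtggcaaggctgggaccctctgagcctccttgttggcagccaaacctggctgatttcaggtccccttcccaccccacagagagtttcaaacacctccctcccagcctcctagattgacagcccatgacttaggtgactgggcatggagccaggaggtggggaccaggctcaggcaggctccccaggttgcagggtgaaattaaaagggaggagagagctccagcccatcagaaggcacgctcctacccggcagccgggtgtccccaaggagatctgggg
Padi4: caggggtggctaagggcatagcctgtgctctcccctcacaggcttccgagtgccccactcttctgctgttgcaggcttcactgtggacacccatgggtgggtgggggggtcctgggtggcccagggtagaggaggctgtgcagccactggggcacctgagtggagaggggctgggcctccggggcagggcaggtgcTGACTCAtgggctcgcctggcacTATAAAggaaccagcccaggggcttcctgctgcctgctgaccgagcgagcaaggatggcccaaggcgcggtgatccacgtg
Tgm3: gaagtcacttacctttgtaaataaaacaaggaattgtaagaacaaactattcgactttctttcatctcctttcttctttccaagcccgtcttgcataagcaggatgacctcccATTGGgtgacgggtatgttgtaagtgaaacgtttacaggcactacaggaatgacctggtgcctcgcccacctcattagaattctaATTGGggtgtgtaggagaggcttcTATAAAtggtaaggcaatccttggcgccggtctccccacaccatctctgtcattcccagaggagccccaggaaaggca
Tgm6: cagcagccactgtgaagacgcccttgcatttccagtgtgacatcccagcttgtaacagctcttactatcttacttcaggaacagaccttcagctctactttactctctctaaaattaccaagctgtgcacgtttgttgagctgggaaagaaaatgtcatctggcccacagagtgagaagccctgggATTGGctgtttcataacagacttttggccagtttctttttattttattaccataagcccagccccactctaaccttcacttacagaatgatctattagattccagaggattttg
Tgm1: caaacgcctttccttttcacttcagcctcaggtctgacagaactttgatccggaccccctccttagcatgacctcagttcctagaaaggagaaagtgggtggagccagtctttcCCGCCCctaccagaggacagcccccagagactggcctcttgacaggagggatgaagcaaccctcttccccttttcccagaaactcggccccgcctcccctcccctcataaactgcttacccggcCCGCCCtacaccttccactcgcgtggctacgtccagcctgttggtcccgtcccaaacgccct

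The Padi3 region held CCAAT at -74, the same motif on the opposite strand at -121 and GGGCGG at -47, counted from the start. Padi1, its neighbour, held none of the 4 motifs, which says only that these letters are not in that window. The Padi4 region held TATAAA at -31 and TGANTCA at -54. Tgm3 held TATAAA at -28 and the opposite-strand form of CCAAT at -137 and -52, and Tgm6 held that form at -64. The 8 members matched have 10 start regions, since Tgm1 and Tgm6 have more than 1 annotated start. CCAAT was found in 6 of these 10 regions and in 37.4% of 32851 start regions of the same length, and GGGCGG in 3 of the 10 and in 35.7%. TATAAA was found in 2 of the 10 and in 13.6% of all regions, and TGANTCA in 1 of the 10 and in 7.81%. The CCAAT match of Tgm1 is in its other region, not in the one shown, which held GGGCGG on the opposite strand at -136 and -12. These matches describe the sequence and are not evidence of binding.

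The first comparison asked how imiquimod-treated skin (IMQ + NS) differed from control skin. Of the 9 members, 6 were called higher (Tgm1, Tgm3, Tgm6, Padi1, Padi3 and Padi4), 2 were called lower (Tgm2 and Padi2), and Tgm5 was not called because its difference was below the fold limit. Among all 15288 genes tested, 22.4% were called, 11.4% higher and 11.0% lower. The 4 samples of each group did not overlap for any member, with 7 members above and 2 below control, where 23.7% of all genes lay above and 25.7% below without overlap. The exact permutation test gave p = 0.0286 for each of the 9 members, the smallest p that 4 against 4 samples can give.

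**Figure D1:**
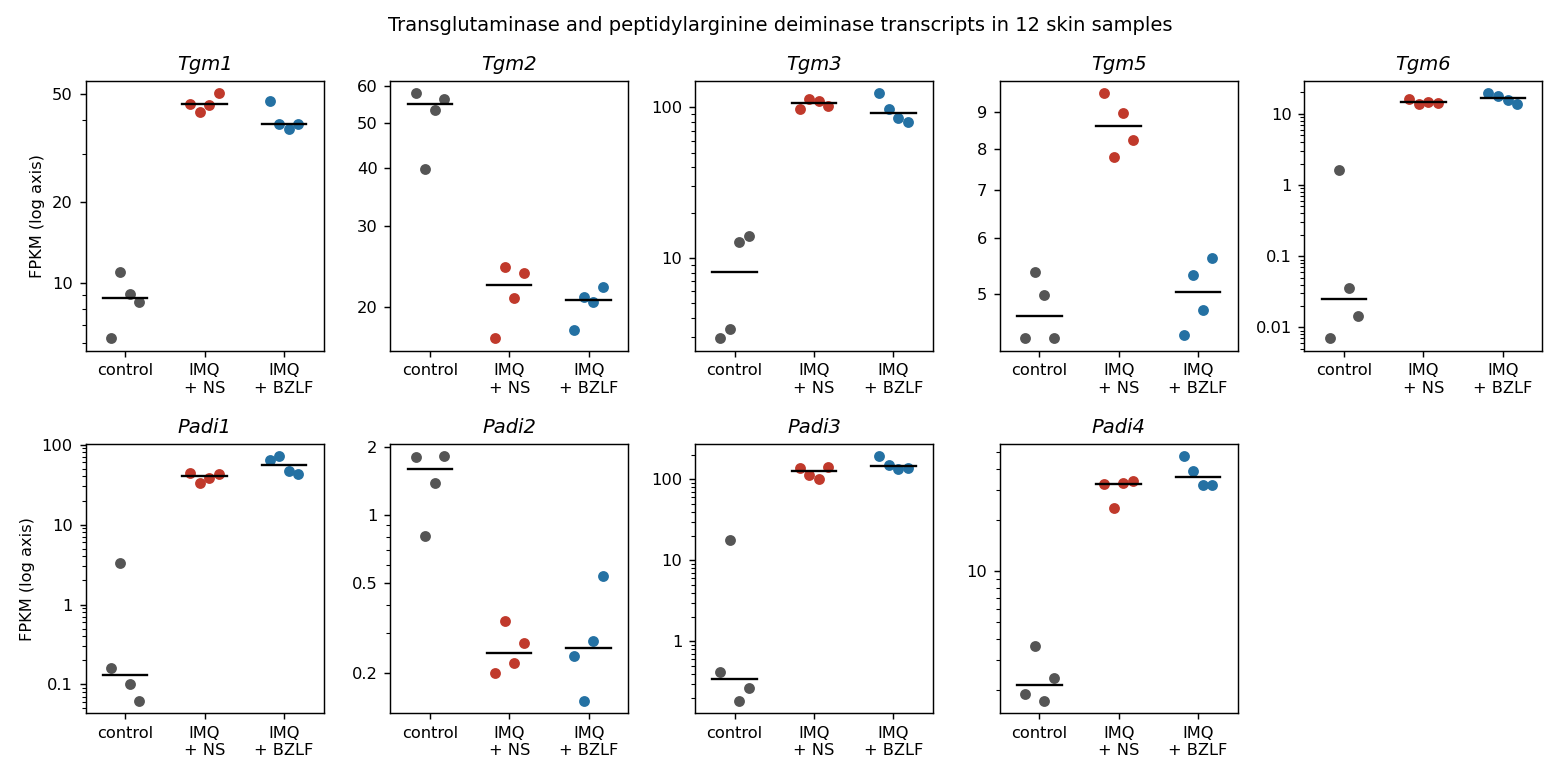
FPKM of the 9 members in the 12 samples, with 1 panel per gene and a log axis that differs between panels. Points are samples in the order of their replicate number and bars are group medians. Control 2 stands above the other controls for Tgm6, Padi1 and Padi3, Tgm2 and Padi2 are highest in the control group, and Tgm5 is highest in the IMQ + NS group.

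Padi3, which deiminates trichohyalin and the hair protein S100A3, had the highest mean level of the 9 members in both imiquimod groups, although Tgm3 was above it in IMQ + NS 3. Its FPKM was 0.424, 18.1, 0.183 and 0.269 in controls 1 to 4, then 138, 113, 102 and 141 in IMQ + NS 1 to 4, and 194, 151, 136 and 139 in IMQ + BZLF 1 to 4. Each imiquimod-treated sample lay above each control sample, and control 2 lay between the other controls and the treated samples. Padi3 averaged 124 ± 19.0 FPKM in IMQ + NS and 4.74 ± 8.90 FPKM in control samples (mean ± SD, n = 4), a log2 difference of 6.94 (SE 1.17, limma adjusted p = 0.00122). Without control 2 the difference was 8.33.

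Padi1 acts on keratin K1 and filaggrin in the differentiating epidermis. Controls 1 to 4 had 0.160, 3.34, 0.102 and 0.0617 FPKM, IMQ + NS 1 to 4 had 43.7, 33.2, 38.4 and 42.5 FPKM, and IMQ + BZLF 1 to 4 had 64.5, 72.2, 46.3 and 43.2 FPKM. As for Padi3, control 2 was the highest control and no control reached a treated sample. The log2 difference between IMQ + NS (39.4 ± 4.75 FPKM) and control samples (0.915 ± 1.61 FPKM) was 6.57 (SE 0.86, limma adjusted p = 0.000327), and 7.59 without control 2.

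Tgm6 is known as a neuronal transglutaminase whose human gene is mutated in a spinocerebellar ataxia. Its FPKM was 0.00700, 1.61, 0.0358 and 0.0144 in controls 1 to 4, and 16.0, 13.8, 14.8 and 14.1 in IMQ + NS 1 to 4. In IMQ + BZLF 1 to 4 it was 19.5, 18.1, 15.8 and 13.7. Control 2 again was the highest control, and the values of both imiquimod groups lay above it. The log2 difference was 5.997 (SE 0.81, limma adjusted p = 0.000378) between 14.7 ± 0.977 FPKM in IMQ + NS and 0.416 ± 0.795 FPKM in control samples, and 6.96 without control 2. Nerve and glia markers summed to between 182 and 240 FPKM in control and between 64.0 and 80.1 FPKM in IMQ + NS samples, with 0 of 6 genes called higher and 4 called lower, and their part in the level of Tgm6 was not tested.

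Tgm3 is made as an inactive precursor in the epidermis and hair follicle, is activated by proteolysis and crosslinks trichohyalin and the small proline-rich proteins. Its levels were 2.92, 3.39, 12.7 and 13.9 FPKM in controls 1 to 4, then 97.7, 113, 110 and 103 FPKM in IMQ + NS 1 to 4 and 124, 97.8, 85.1 and 79.5 FPKM in IMQ + BZLF 1 to 4. Within the control group Tgm3 was high in samples 3 and 4, not in sample 2. Controls 3 and 4 also had the largest sums of suprabasal genes, 2439 and 2526 FPKM against 1684 FPKM in control 1 and 1041 FPKM in control 2. Tgm3 averaged 106 ± 6.87 FPKM in IMQ + NS and 8.24 ± 5.89 FPKM in control samples, a log2 difference of 4.002 (SE 0.50, limma adjusted p = 0.000246).

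Padi4 is best known from neutrophils, where it deiminates histones during the release of extracellular traps. It stood at 1.91, 3.66, 1.72 and 2.37 FPKM in controls 1 to 4, at 32.7, 23.4, 32.8 and 34.0 FPKM in IMQ + NS 1 to 4, and at 47.5, 39.0, 32.1 and 32.2 FPKM in IMQ + BZLF 1 to 4. All treated samples lay above all controls, and IMQ + NS 2 was the lowest of the treated samples. The log2 difference between IMQ + NS (30.7 ± 4.89 FPKM) and control (2.41 ± 0.872 FPKM) was 3.66 (SE 0.23, limma adjusted p = 6.69e-06). The 10 neutrophil markers together had 7.60 to 11.8 FPKM in control samples, 43.6 to 88.6 FPKM under imiquimod with saline and 9.86 to 17.0 FPKM under imiquimod with BZLF. The part of neutrophils in the level of Padi4 was not tested.

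Tgm1 is the membrane-anchored enzyme of keratinocytes, whose loss in humans causes lamellar ichthyosis. It was measured at 6.24, 11.0, 9.08 and 8.48 FPKM in controls 1 to 4, at 46.0, 43.1, 45.6 and 50.3 FPKM in IMQ + NS 1 to 4 and at 47.1, 38.7, 37.1 and 38.6 FPKM in IMQ + BZLF 1 to 4. The controls and the treated samples were far apart, and the imiquimod groups overlapped each other. Tgm1 averaged 46.2 ± 2.999 FPKM in IMQ + NS and 8.70 ± 1.96 FPKM in control samples, a log2 difference of 2.42 (SE 0.16, limma adjusted p = 7.71e-06).

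Tgm2 is the widely expressed tissue transglutaminase, found in fibroblasts and endothelium among other cells. It fell from 57.9, 39.7, 53.4 and 56.4 FPKM in controls 1 to 4 to 17.1, 24.4, 20.9 and 23.7 FPKM in IMQ + NS 1 to 4. IMQ + BZLF 1 to 4 had 17.8, 21.03, 20.5 and 22.1 FPKM. Control 2 was the lowest control and still lay above all treated samples. The means were 51.8 ± 8.34 FPKM in control and 21.5 ± 3.31 FPKM in IMQ + NS samples, a log2 difference of -1.26 (SE 0.15, limma adjusted p = 0.000216). Tgm2 overlaps Rprd1b on the opposite strand by 15896 bases, and whether reads were counted by strand is not stated, so a share of its reads could come from Rprd1b, which had a mean of 10.3 FPKM. Other members share this limit with opposite-strand genes that have no deposited values. The shared bases are 12274 for Tgm1, 4921 for Padi2, 4529 for Padi1, 768 for Tgm5 and 117 for Tgm3.

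Padi2, a widely expressed deiminase found in muscle and brain, fell as well but from a low level. Its FPKM was 1.81, 0.810, 1.39 and 1.82 in controls 1 to 4, then 0.200, 0.340, 0.221 and 0.273 in IMQ + NS 1 to 4 and 0.239, 0.150, 0.277 and 0.539 in IMQ + BZLF 1 to 4. As for Tgm2, control 2 was the lowest control and did not reach the treated samples. The log2 difference between 0.258 ± 0.0623 FPKM in IMQ + NS and 1.46 ± 0.476 FPKM in control was -2.07 (SE 0.26, limma adjusted p = 0.000281). With a constant of 1 in place of 0.1 it was -0.94 and was no longer called.

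The summed markers of dermal and deeper tissues were also lower in IMQ + NS than in control samples. Skeletal muscle genes summed to between 4456 and 11070 FPKM in control and between 812 and 1963 FPKM in IMQ + NS samples, with 10 of 10 called lower. Fibroblast genes summed to between 13098 and 18662 FPKM in control and between 3695 and 4902 FPKM in IMQ + NS samples, with 5 of 7 called lower. Endothelial genes ranged from 140 to 202 FPKM and from 102 to 121 FPKM, with 1 of 9 called lower, macrophage genes from 905 to 1289 FPKM and from 635 to 897 FPKM, with 1 of 9 called lower, and sebaceous genes from 865 to 1432 FPKM and from 436 to 664 FPKM, with 2 of 6 called lower. Single genes of these lists went the other way. The sebaceous genes Elovl3 (0.93) and Soat1 (0.51) and the macrophage gene Adgre1 (0.70) lay above all controls in every IMQ + NS sample. Mc5r, also sebaceous, differed by 0.03, and none of these genes was called. The part of these markers in the fall of Tgm2 and Padi2 was not tested.

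Tgm5, a keratinocyte enzyme whose loss in humans causes acral peeling skin, was the member whose level with BZLF overlapped that of the control group. Controls 1 to 4 had 4.35, 5.37, 4.99 and 4.34 FPKM, IMQ + NS 1 to 4 had 9.57, 7.79, 8.98 and 8.23 FPKM, and IMQ + BZLF 1 to 4 had 4.38, 5.32, 4.75 and 5.63 FPKM. IMQ + NS samples lay above all others, and IMQ + BZLF samples lay in the range of the controls or just above it. The log2 difference of IMQ + NS (8.64 ± 0.788 FPKM) from control (4.76 ± 0.509 FPKM) was 0.85 (SE 0.11, limma adjusted p = 0.000307), with a 95% interval from 0.60 to 1.10 that includes the fold limit.

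**Figure D2:**
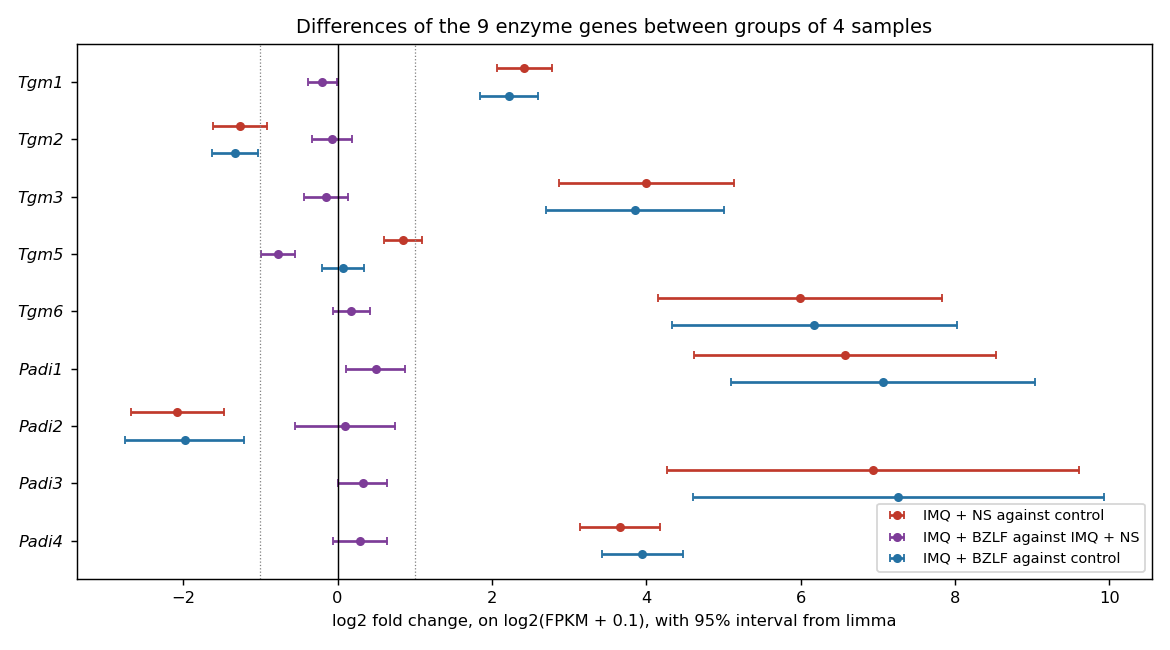
Log2 differences of the 9 members in the 3 comparisons, on log2(FPKM + 0.1), with limma's 95% intervals over 4 and 4 samples; dotted lines mark the fold limit of 1. Red and blue intervals, against control, lie beside each other for each member but Tgm5, and the intervals of IMQ + BZLF against IMQ + NS all lie within the limit.

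The second comparison asked what differed between lesions treated with BZLF and with saline. None of the 9 members was called by limma (0 higher and 0 lower), in a comparison in which 2.52% of all genes were called, 0.321% higher and 2.20% lower. Without the fold limit, 4 of the 9 were at an unadjusted p below 0.05 (Tgm1, Tgm5, Padi1 and Padi3), as were 22.7% of all genes, and 1 of the 9, Tgm5, was at an adjusted p below 0.05, as were 6.45% of all genes. By the exact permutation test 1 member, again Tgm5, was below 0.05.

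Tgm5 was lower in IMQ + BZLF (5.02 ± 0.559 FPKM) than in IMQ + NS samples (8.64 ± 0.788 FPKM), by a log2 difference of -0.77 (SE 0.10, 95% interval -0.996 to -0.551, limma adjusted p = 0.00394). The 4 IMQ + BZLF samples lay below the 4 IMQ + NS samples (exact permutation p = 0.0286), as did 10.9% of all genes, while 4.24% lay above without overlap. Leaving out any 1 of the 8 samples left the difference between -0.83 and -0.71. Basal keratinocyte genes summed to between 1322 and 1777 FPKM in control, 3332 and 5420 FPKM in IMQ + NS and 1652 and 2313 FPKM in IMQ + BZLF samples. Of these 6 genes, 3 were called higher in IMQ + NS than in control, and 1 was called lower in IMQ + BZLF than in IMQ + NS. Krt15 alone of the 6 went the other way, by -0.83 and 0.26 in these comparisons, and was called in neither. Hyperproliferative keratins (Krt6a, Krt6b, Krt16 and Krt17) summed to between 190 and 616, 2344 and 4207, and 1140 and 1392 FPKM in the same order, with 4 of 4 called higher under imiquimod and 3 of 4 called lower with BZLF. The part of these keratinocyte markers in the difference of Tgm5 was not tested.

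The intervals of the other members give the uncertainty of their differences between these groups, per gene and not adjusted over the 9 members. Tgm1 differed by -0.20 (95% interval -0.39 to -0.01, limma adjusted p = 0.193), Tgm3 by -0.15 (-0.44 to 0.14) and Tgm2 by -0.07 (-0.33 to 0.19). Padi1 averaged 56.5 ± 14.1 FPKM with BZLF and differed by 0.49 (0.11 to 0.87, limma adjusted p = 0.124), and Padi3 averaged 155 ± 26.9 FPKM and differed by 0.32 (0.01 to 0.64, limma adjusted p = 0.205). For Padi4 the difference was 0.29 (-0.06 to 0.64) and for Tgm6 0.18 (-0.06 to 0.42). Padi2 had the widest interval, from -0.55 to 0.74 around 0.09, and turned to -0.16 without IMQ + BZLF 4, its highest sample of that group. The intervals of the 9 members all lay within the fold limit. Over the same samples neutrophil markers were called lower for 9 of 10 genes.

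The third comparison, of BZLF-treated lesions with control skin, uses samples of both earlier comparisons and is therefore given beside them, not as a check of them. Here 6 members were called higher and 2 lower, where 9.65% and 10.1% of all genes were (19.7% in either direction), and Tgm5 was not called. The groups did not overlap for the same 6 members above and 2 below control, as for 19.4% and 28.1% of all genes. Padi3 differed by 7.26, Padi1 by 7.06 and Tgm6 by 6.18 on the log2 scale, and by 8.66, 8.08 and 7.14 without control 2. Padi4 differed by 3.95, Tgm3 by 3.85, Tgm1 by 2.22, Tgm2 by -1.33 and Padi2 by -1.98. The Tgm5 difference was 0.07 (95% interval -0.20 to 0.35, limma adjusted p = 0.623).

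The make-up of each family differed between the groups. Tgm2 made up 70.1% ± 7.40 of the summed FPKM of the 5 transglutaminases in control samples, 10.9% ± 1.37 with saline and 11.6% ± 2.33 with BZLF (mean ± SD, n = 4). Tgm3 went from 10.6% ± 6.66 to 53.7% ± 2.03 and 53.6% ± 3.55, and Tgm1 from 12.1% ± 4.11 to 23.5% ± 1.80 and 22.6% ± 1.18. Thus Tgm2 led in every control sample and Tgm3 in every imiquimod-treated sample. The summed level was 74.0 ± 9.94 FPKM in control, 197 ± 7.09 FPKM in IMQ + NS and 179 ± 24.2 FPKM in IMQ + BZLF samples. Tgm6 went from 0.677% to 7.47% and 9.36% of the sum, and Tgm5 was at 6.58%, 4.40% and 2.86%.

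Among the deiminases Padi4 and Padi2 held most of the sum in controls 1, 3 and 4. Padi4 had a mean share of 40.4% ± 17.9 in control samples, of 15.9% ± 2.14 with saline and of 15.1% ± 0.290 with BZLF, although its level rose. Padi2 went from 31.6% ± 19.0 in control to 0.136% with saline and 0.129% with BZLF. Padi3 had 5.40% to 69.9% of the sum in control samples, with control 2 at the upper end, and 63.6% ± 3.27 and 62.2% ± 3.21 in the treated groups. Control 2 was thus the control in which Padi3 led the family, as it did in the treated samples, though the sum there was 25.9 FPKM against 194 ± 25.7 FPKM in IMQ + NS and 249 ± 44.0 FPKM in IMQ + BZLF samples. The lowest control sum was 3.40 FPKM.

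**Figure D3:**
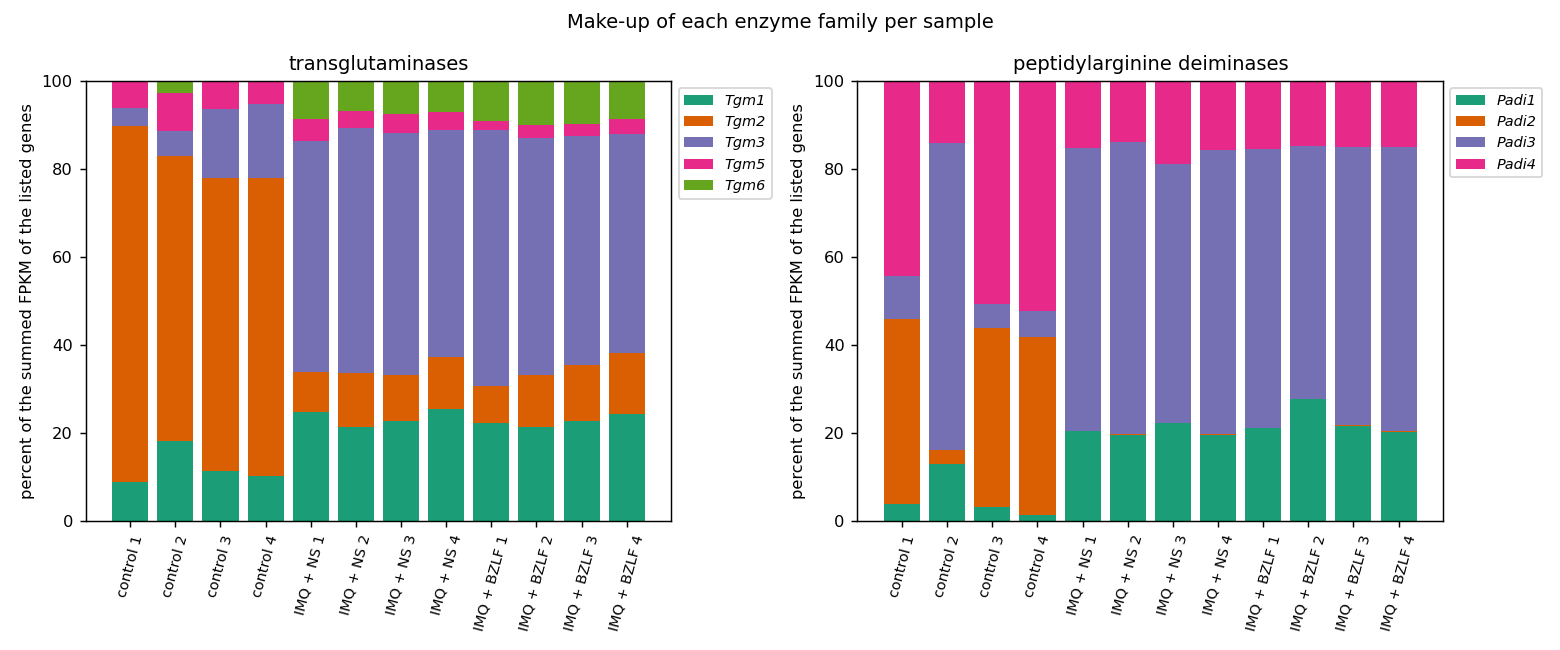
Share of each member in the summed FPKM of its family, 1 stacked bar per sample adding to 100%. Tgm2 (orange, left) fills most of the control bars and Tgm3 (purple, left) most of the treated bars; on the right, Padi3 (purple) leads in control 2 and in all 8 treated samples.

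How the members ran with hair follicle genes was described over the 12 samples. Inner root sheath keratins (7 measured of 8 listed) summed to between 6780 and 8713 FPKM in IMQ + NS and between 8445 and 11896 FPKM in IMQ + BZLF samples, and 7 of 7 were called higher in IMQ + NS than in control samples. Hair shaft keratins summed to between 15.6 and 317 FPKM in control, 6313 and 9266 FPKM in IMQ + NS and 8477 and 12988 FPKM in IMQ + BZLF samples, with 13 of 13 called higher. Control 2 was the highest control for both lists, and cell division genes summed to 122 FPKM in it, against 12.3 to 20.1 FPKM in the other controls and 93.7 to 109 FPKM in IMQ + NS samples.

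The level of Padi3 stayed in nearly 1 ratio to the inner root sheath keratins. Per 1000 FPKM of the 7 summed keratins, Padi3 had 8.25 to 17.2 FPKM over the 12 samples, a 2.08-fold range, while its own level ranged 1059-fold and the keratin sum 759-fold. Padi1 had 1.88 to 7.67 FPKM per 1000, a 4.07-fold range against 1170-fold for its level, and Tgm6 had 0.136 to 2.19, a 16.1-fold range against 2780-fold. The ranges of these levels rest on lowest values of 0.0617 FPKM for Padi1 (control 4) and 0.00700 FPKM for Tgm6 (control 1). Both are under the constant of 0.1 and of unknown read depth, so the size of these ranges is uncertain. For Padi4 and Tgm1 the ratio spread 73.3-fold and 137-fold, wider than their levels did (27.6-fold and 8.05-fold). Tgm3 spread 464-fold, and its lowest ratio, 1.92, was in control 2. The ratio was chosen after these values had been seen, the 12 points share the contrast between control and treated skin, and the part of hair follicle content in the rise of Padi3, Padi1 and Tgm6 was not tested.

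**Figure D4:**
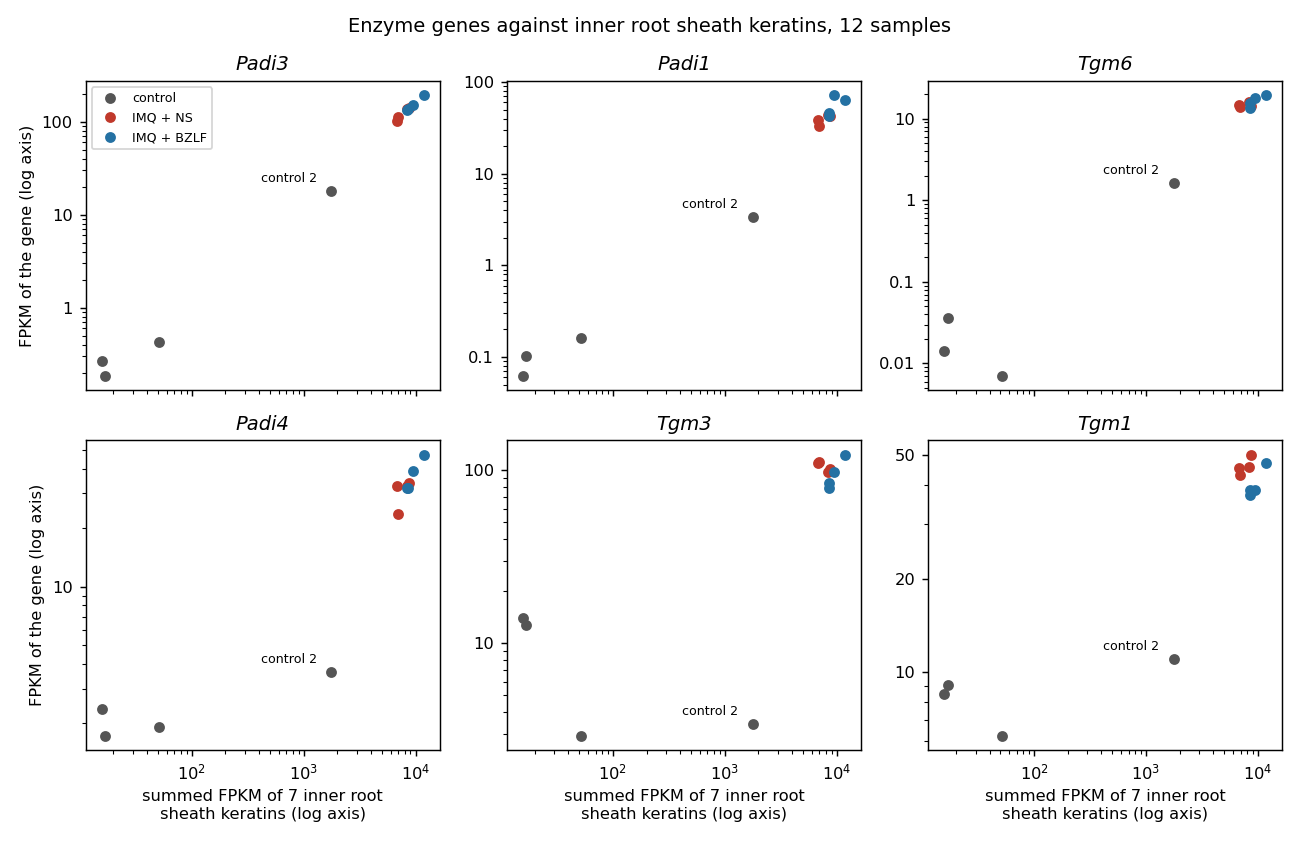
FPKM of 6 members against the summed FPKM of 7 inner root sheath keratins, 1 point per sample, both axes logarithmic. Padi3 runs along a line through control 2. For Padi1, control 2 has the lowest ratio of the 12 samples, 1.88 FPKM per 1000 FPKM of keratins. For Tgm3 and Tgm1, control 2 lies at the height of the other controls at a keratin sum of 1771 FPKM.

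Genes with the most similar pattern were found for each member by the root mean square difference of mean-centred log2 values over 12 samples, among 12649 genes. For Padi3 they were Tchh (0.147), which encodes its substrate trichohyalin, Krt27 (0.221) and Dsg4 (0.222), a desmoglein of the hair. For Padi1 they were Prr9 (0.212), Dsg4 (0.318) and Sct (0.333), and for Tgm6 Crym (0.262), Kcnk16 (0.310) and Cryba4 (0.325). Padi4 was nearest to Otub2 (0.193), Sprr1a (0.200), a cornified envelope precursor, and Hephl1 (0.219). Tgm1 was nearest to Fam83g (0.125), Crybg2 (0.138) and Sfn (0.143), which encodes the keratinocyte protein 14-3-3 sigma. Tgm3 had no close match, with Dnase1l2 (0.552), Slc5a8 (0.575) and Rnf222 (0.589) the nearest. For Tgm2 they were Gpr146 (0.0896), Ugp2 (0.110) and Cenpv (0.113), and for Padi2 Camk2b, Rtn2 (both 0.191) and Tmem38a (0.210), the last a channel of the muscle sarcoplasmic reticulum. Among the members themselves Tgm6 and Padi1 differed by 0.427, Padi3 and Padi1 by 0.461 and Tgm2 and Padi2 by 0.461, while Tgm1 and Tgm3 were each 0.756 from their nearest member, Padi4.

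The proteins on which deiminases act were listed by 7 genes, of which 4 were called higher and 1 lower in IMQ + NS than in control samples, with a median log2 difference of 2.37 against 0.05 over all genes tested. Tchh rose by 7.14 (limma adjusted p = 0.00093), from 54.4 ± 99.4 to 1703 ± 225 FPKM, and S100a3, the hair cuticle substrate of Padi3, by 7.16 (limma adjusted p = 0.000816), from 10.9 ± 19.6 to 388 ± 51.5 FPKM. Flg, which encodes filaggrin, rose by 3.30, from 1.54 ± 0.358 to 16.6 ± 5.51 FPKM, and Krt1 by 2.37. Flg2, a filaggrin relative of the upper epidermis, fell by 3.35, from 12.7 ± 3.58 to 1.22 ± 0.663 FPKM. Hrnr (0.92) and Krt10 (0.22) were not called. Flg2 was also the 1 gene of the list called between the imiquimod groups, higher with BZLF by 1.98 (limma adjusted p = 0.0134), a call lost without IMQ + BZLF 2. None of the other 6 was called there: Krt1 differed by -1.20 (1152 ± 328 against 517 ± 208 FPKM with BZLF, limma adjusted p = 0.0534), Krt10 by -0.48, Hrnr by 0.37, Tchh by 0.35, S100a3 by 0.27 and Flg by 0.07. With the fold limit, 1 gene of the list was called lower at an unadjusted p below 0.05, and 1 also without IMQ + BZLF 3. Against control samples, 5 of the 7 were called higher and 1 lower in IMQ + BZLF samples, and 3 were called higher without IMQ + BZLF 2, 3 or 4 or without control 1 or 2.

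The proteins that transglutaminases crosslink were listed by 43 genes, of which 40 were tested. In IMQ + NS against control samples 31 were called higher and 3 lower, with a median log2 difference of 2.66. Sprr2a1 and Sprr2k are among the 31. Both passed the filter only through the IMQ + NS samples, so these calls carry no weight. The largest rises were those of the small proline-rich genes Sprr2b (9.97) and Sprr2d (8.82), and the largest falls those of the late cornified envelope genes Lce1m (-4.57) and Lce1l (-1.09). Lor, which encodes loricrin, was the other gene called lower, at -1.03 (654 ± 277 FPKM in control, 307 ± 98.5 FPKM in IMQ + NS, limma adjusted p = 0.0422). Ivl, which encodes involucrin, was called higher, at 1.69. The count called lower was 1 without IMQ + NS 4 or without control 1. In IMQ + BZLF against IMQ + NS samples 17 were called lower and 1 higher, with a median of -0.14. None of the 5 transglutaminases was called. Of all genes 2.20% were called lower and 0.321% higher. The 17 were Sprr2 and Lce3 genes, Sprr1b and Rptn. Sprr2a1 (0.0138 FPKM with BZLF) and Sprr2k (0.0305 FPKM) are among them, and their calls carry no weight. Not called were 22 genes, among them Lor (0.35), Ivl (0.24), Sprr1a (0.21), Ppl (0.07), Evpl (-0.02), Dsp (-0.11) and Cnfn (-0.43). Sprr2b (-7.70) and Sprr2d (-7.46) fell most, and Lce1m (2.30) rose. Sprr2 genes are related in sequence, some more closely than others, and reads could have been split between them. The value of a single copy is therefore uncertain, and their calls may not be independent of each other. In IMQ + BZLF against control samples 25 were called higher, led by Crnn (7.80) and Sprr2h (6.34), and 1 lower, Lce1m (-2.27), with a median of 1.69, and 2 were called lower without control 2.

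Proteases and inhibitors that act on the zymogen of Tgm3, on filaggrin or on their activators were listed by 11 genes. In IMQ + NS against control samples 6 were called higher and 0 lower (median 1.06). Casp14, a protease of filaggrin breakdown, rose by 3.55 and St14, which encodes matriptase, by 2.07. Between BZLF and saline treatment limma called 0 of the 11 (median -0.29), and 1 was called lower at an unadjusted p below 0.05 with the fold limit, without IMQ + BZLF 3 and without IMQ + NS 4. Casp14 had the largest difference there, -1.07 (limma adjusted p = 0.0574). Against control, 5 were called higher in IMQ + BZLF samples (median 0.61), with Casp14 at 2.48 and St14 at 2.14.

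**Figure D5:**
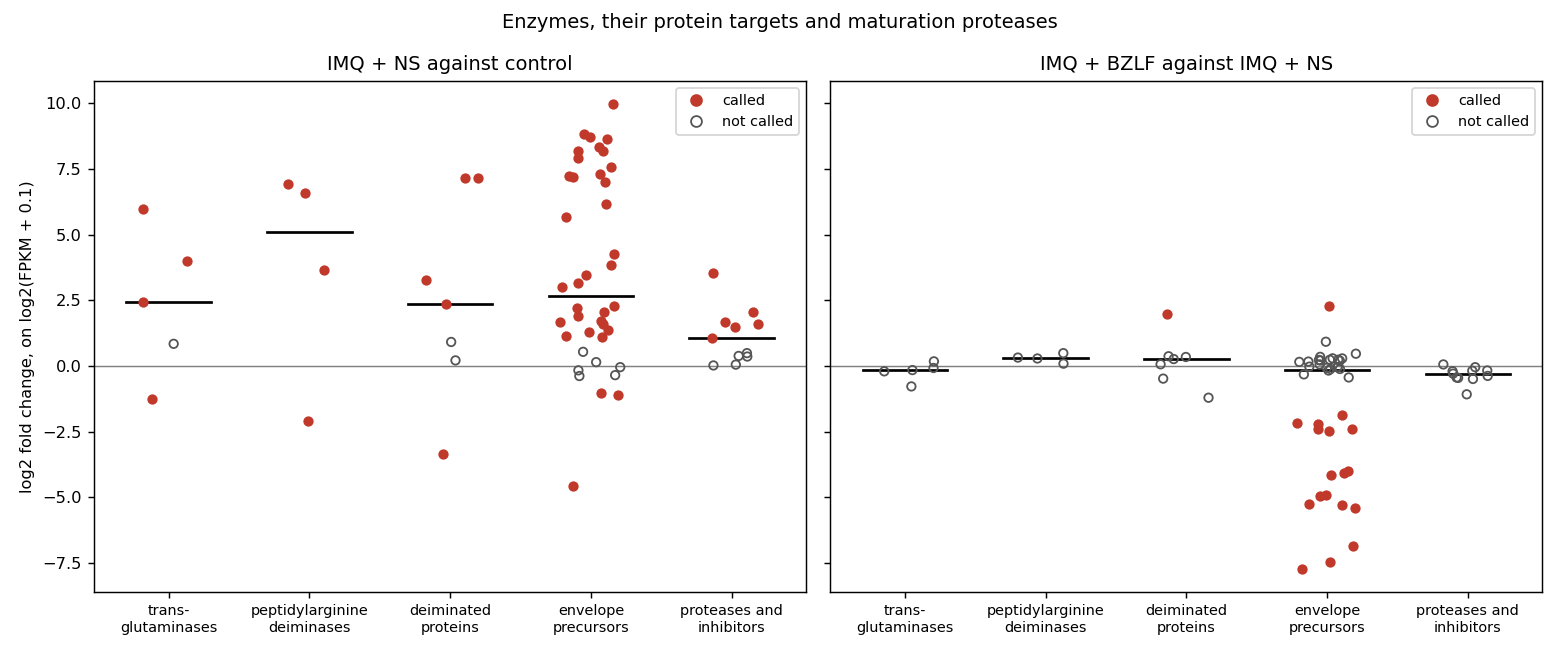
Log2 differences of the members, of their protein targets and of maturation proteases and inhibitors, 1 point per gene, in IMQ + NS against control (left) and IMQ + BZLF against IMQ + NS (right). Filled points were called, open points were not, and bars are medians. On the right, 17 envelope precursors are called lower, where 2.20% of all genes were, and the 9 enzyme genes lie between -0.77 and 0.49. The 17 are Sprr2 and Lce3 genes, Sprr1b and Rptn, and include Sprr2a1 and Sprr2k, which passed the filter only through the IMQ + NS samples.

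The other listed genes of both families gave few values. Of 6 genes (Tgm4, Tgm7, F13a1, F13b, Epb42 and Padi6), 2 passed the filter on low values. F13a1, the catalytic subunit of coagulation factor XIII, which is made by macrophages among other cells, fell from 74.5 ± 11.8 FPKM in control to 32.7 ± 6.997 FPKM in IMQ + NS samples (log2 difference -1.20, limma adjusted p = 0.000469) and was at 32.3 ± 4.88 FPKM in IMQ + BZLF samples. Tgm7, the neighbour of Tgm5, was called lower at a low level, from 0.271 ± 0.0917 to 0.0241 ± 0.0104 FPKM (-1.55). Its mean over the 12 samples, 0.114 FPKM, passed the filter of 0.1 only through the control samples, so its call carries no weight. With a constant of 1 or a filter at a mean of 1 FPKM, 1 gene of this list was called lower in place of 2. Neither F13a1 nor Tgm7 was called between IMQ + BZLF and IMQ + NS samples. Suprabasal genes had 2 of 6 called higher and 1 called lower in IMQ + NS samples, and 5 of 6 cell division genes and 9 of 10 neutrophil genes were called higher. Of the 7 seminal vesicle genes tested 0 were called.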

How the data were processed

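Total RNA of 12 mouse back skin samples had been sequenced. The authors deposited FPKM values, 1 per gene and sample, normalized for transcript length and depth and not pooled. The sources differ on how they were made: the paper gives the mirVana kit, a stranded ribosome-depleted library, Bowtie2 alignment to transcripts and eXpress, whereas the labels give TRIzol and the VAHTS Universal V6 kit, and the submitters' processing notes list fastp, HISAT2, HTSeq, R 3.2.0 and mm10. Annotation and strand setting are not given in the sources used here. Sums of FPKM per sample were 444660 to 461199 in control, 492551 to 506622 in IMQ + NS and 476676 to 493935 in IMQ + BZLF samples, and 16649 to 16941 genes were above 0. Of 19113 low values, 30.1% were whole multiples (within 0.05) of the lowest value found for that gene, so counts were not rebuilt, the read depth behind a value is unknown, and precision is given by the 4 replicates. Columns without a sample numbered 0. The labels do not say that the samples of a group came from separate animals, and p-values measure the spread between these samples.

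Groups followed the labels. Genes with a mean of at least 0.1 FPKM (15288 of 18505) were tested on log2(FPKM + 0.1) with limma 3.58.1 in R 4.3.3 (moderated variances with a trend), separately for each pair of groups, with Benjamini-Hochberg adjustment over all genes tested. The method was run on simulated data with independent normal noise for each gene. Such data cannot show the effect of an outlying sample such as control 2 or of genes that vary together. For each member, the exact permutation test (two-sided) used all 70 assignments of 4 and 4 samples. Figures and descriptions used Python 3.11.15, pandas 2.3.3 and matplotlib 3.10.9. The members, the 18 other gene lists and the tests were chosen with earlier results of these data known, and the ratio to inner root sheath keratins and the start regions to show were chosen after the values were seen. All members are named. From the lists of related genes the 2 largest rises and 2 largest falls among called genes with a mean of at least 1 FPKM are named, and the short lists of deiminated proteins and of other family members in full. Further envelope precursors are named to show which genes the counts hold. For each called member the 3 genes nearest in pattern are named. Alternatives were other constants, filters, scalings, variance models and call rules, a replicate block and leaving out each sample. Depth, counts and fold changes of the authors were not used here.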

Additional observations from a re-analysis of the deposited data

Results flagged for a closer look

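Of 27 sets of 4 samples (9 members in 3 groups), 4 held a sample whose gap to the nearest of the others was, as a part of the range, above Dixon's 95% critical value, where chance gives about 1 in 20. In the control group, sample 2 was the highest for Tgm6 at 1.61 FPKM (the others 0.00700 to 0.0358 FPKM), for Padi1 at 3.34 FPKM (the others 0.0617 to 0.160 FPKM) and for Padi3 at 18.1 FPKM (the others 0.183 to 0.424 FPKM). The same sample had 1771 FPKM of inner root sheath keratins, and the part of these in the 3 values was not tested. In the IMQ + NS group, sample 2 was the lowest for Padi4 at 23.4 FPKM, with the others between 32.7 and 34.0 FPKM.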

How the results depend on the processing

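The numbers of members called, 6 higher and 2 lower against control in both imiquimod groups and 0 between these groups, were the same without any 1 of the 8 samples of a comparison, under the other scalings, the variance models, an unadjusted p and all 12 samples in 1 fit. In both comparisons with control, 1 member was called lower in place of 2 with a constant of 1 (Padi2 at -0.944 and -0.903) and with a filter at a mean of 1 FPKM, which left Padi2 untested. Without the fold limit 1 member, Tgm5, was called lower in IMQ + BZLF than in IMQ + NS samples, and it was also called higher in IMQ + NS than in control samples. Tgm5 in IMQ + BZLF against control samples turned from 0.07 to -0.0267 with equal sums and to -0.00765 with quantile normalization. Equal sums moved the median of all genes in IMQ + NS against control samples from 0.05 to -0.07, and quantile normalization also to -0.07. Padi2 in IMQ + BZLF against IMQ + NS samples ranged from -0.16 to 0.29 when samples were left out, with the lowest value without IMQ + BZLF replicate 4. The cause of these changes was not tested. With the replicate number as a block, 6 members were called higher and 2 lower against control in both imiquimod groups and 0 between them, and no member's call changed. The block added 1 gene called lower in IMQ + BZLF than in IMQ + NS samples to the deiminated proteins and 1 to the proteases and inhibitors. Same-numbered samples correlated between -0.15 and 0.26 in their deviations from the group means, and not every sample correlated best with its own number, so they were treated as sharing only a number. Over all genes, the number called fell from 3418 to 2191 (IMQ + NS against control), from 385 to 205 (IMQ + BZLF against IMQ + NS) and from 3017 to 1844 (IMQ + BZLF against control) with a constant of 1, was 8569, 986 and 8098 without the fold limit, and was 252 to 405 in the second comparison when samples were left out. Levels near 0 in control samples, as for Tgm6 and Padi1, have an unknown read depth, and their fold changes depend on the constant.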
